A study of Mus musculus with 14 samples.

Results

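Integrin and laminin genes were followed in mouse forelimb buds with and without *Smad4* during the onset of limb bud outgrowth. The members were all gene symbols made of Itga and a number, Itgav, Itgb and a digit, or Lama, Lamb or Lamc and a digit. These were 31 of the 23284 symbols counted, namely 12 integrin alpha chain genes, 8 integrin beta chain genes and 11 laminin genes, of which 5 encode alpha, 3 beta and 3 gamma chains. The rule used symbols and no measured value. 

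Poly(A) RNA-seq was done on 14 embryos of the NMRI strain, and each replicate was the pair of forelimb buds of 1 embryo. Wild type was *Smad4*+/+ *PrxCre*T/+, so that the controls carried the Cre transgene too, and the mutant was *Smad4*Δ/Δc *PrxCre*T/+, with a constitutive null allele and a conditional allele that Cre recombines. Embryos were taken at 30 somites, referred to as E10.0, and at 35 somites, referred to as E10.5, and each stage was represented by 3 wild-type and 4 mutant embryos. The *Prrx1* regulatory element drives Cre in the limb bud mesenchyme, so that ectoderm, vessels and blood in the same buds are not targeted by design. In mutants those tissues still carry the constitutive null allele, which the controls lack. *Smad4*, the gene targeted, was at 152 to 169 CPM in wild type at E10.0 and at 36.9 to 46.0 CPM in mutants. At E10.5 it was at 163 to 167 CPM and 32.9 to 40.7 CPM, respectively. CPM are the reads on a gene relative to the reads on all tested autosomal genes of the library, scaled by TMM. Between 34066930 and 61691258 reads per embryo were counted on genes, and 0.117% to 0.155% of them fell on the 31 members. The ribosomal RNA gene *Rn45s* took 1.72% to 8.05% of the reads in the mutant libraries numbered 4 and 5 of both stages and 0.151% to 0.478% in the other 10 libraries, and results were also computed without those 4 libraries. All 8 markers of limb mesenchyme were detected, with a summed level of 1398 to 1978 CPM, and some of them differed between the genotypes, as given with the other markers at the end.

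Integrins are cell surface receptors made of an alpha and a beta chain, which link the extracellular matrix to the actin cytoskeleton. The alpha chain largely sets the ligand, which can be laminin, collagen or proteins with an RGD motif such as fibronectin. Laminins are secreted trimers of an alpha, a beta and a gamma chain and the main building block of basement membranes, the sheets of matrix that separate the limb bud ectoderm from the mesenchyme and surround vessels. SMAD4 is the shared partner of the receptor-activated SMADs and carries BMP and TGFβ signals to the nucleus.

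Levels of different genes were compared per length, as CPM per kilobase (kb) of annotated exon. *Itgb1*, whose product pairs with most of the alpha chains, had the highest level of all members in wild type at E10.0, with 96.4 ± 4.92 CPM per kb (SD, n=3). *Itgb5*, a partner of the alphaV chain, followed at 45.6 ± 1.17 CPM per kb. Both stood apart from their neighbours in this order in every embryo. *Itga5*, the alpha chain of the main fibronectin receptor, was at 19.8 ± 1.09 CPM per kb, *Lamc1* at 18.8 ± 3.66 and *Lamb1* at 14.3 ± 2.002, and the ranges of neighbours in this trio overlapped. *Lamc1* and *Lamb1* encode the gamma and beta chains that most laminins share. Next came *Itga3* (10.7 ± 1.74 CPM per kb), *Itga9* (9.25 ± 0.917), *Itgav* (7.60 ± 0.513) and *Itga6* (6.67 ± 0.585). *Itga3* and *Itga6*, both laminin-binding alpha chains, were thus separated by *Itga9* and *Itgav*. *Lama4* at 4.40 ± 0.444 and *Lama5* at 4.27 ± 1.49 CPM per kb led the laminin alpha chains and did not differ beyond their spread.

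**Figure D1:**
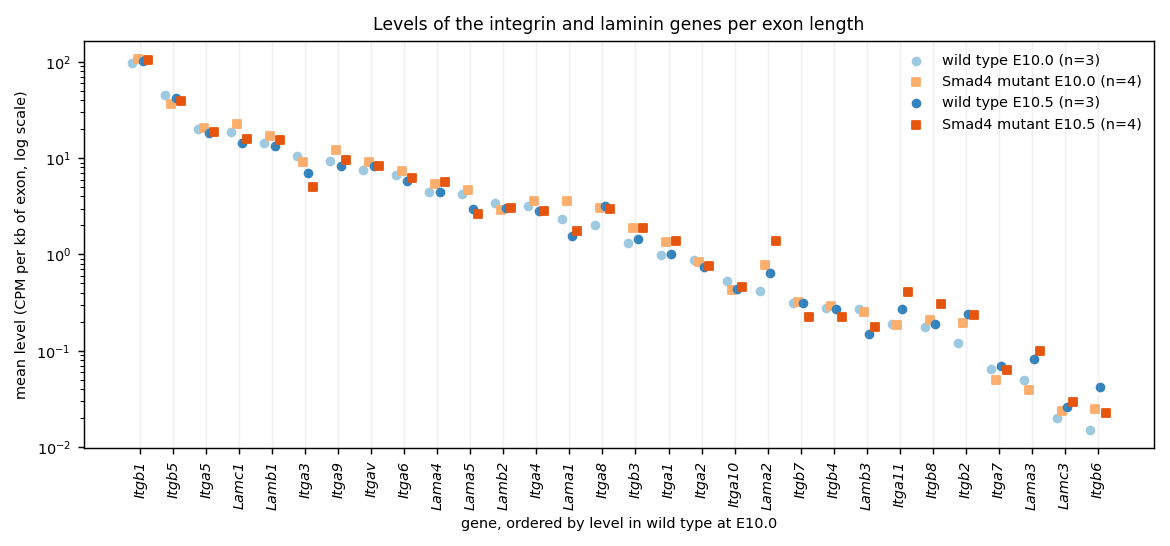
Mean level of 30 of the 31 members in the 4 groups, in CPM per kb of exon on a log scale, ordered by the level in wild type at E10.0 (n=3 wild-type and 4 mutant embryos per stage). Levels span from 96.4 CPM per kb for *Itgb1* to 0.0152 for *Itgb6*, and for most genes the 4 groups lie close together on this scale.

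Of the 31 members, 27 (17 integrins and 10 laminins) reached at least 1 CPM in at least 3 embryos and were tested. *Itga7*, *Itgb2*, *Itgb6* and *Lamc3* did not reach 1 CPM in any embryo. *Itga7*, a laminin-binding chain of muscle, had 3 to 20 reads per embryo. *Itgb2*, the leukocyte beta chain, had 11 to 50 reads, *Itgb6*, an epithelial beta chain, 3 to 16 and *Lamc3* 3 to 12. Just inside the filter were *Itgb7* and *Lama3*, with 3 embryos each at 1 CPM or more, *Lamb3* with 5 and *Itga11* with 9. For these genes, changes were measured on 12 to 109 reads per embryo, and smaller differences were not detectable at this depth.

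At E10.0, loss of *Smad4* came with higher transcript levels of *Itga8*, *Itga9*, *Itgb3* and *Lama2* and a lower level of *Itgb5*. A gene was called changed at an adjusted p of at most 0.1 (Benjamini-Hochberg over all 12393 genes tested) and a fold change of at least 1.2 in edgeR's exact test. By this rule 5 of the 27 members tested were called, beside 6.61% of all genes tested. Of these 5 members, 4 were higher in mutants, against 3.33% of all genes, and 1 was lower, against 3.28%. The median log2 fold change was 0.13 over the members and -0.02 over all genes.

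*Lama2* encodes the alpha2 chain, a laminin chain best known from skeletal muscle and peripheral nerve. It was at 4.62, 4.46 and 3.17 CPM in the wild-type embryos at E10.0 and at 5.73, 7.17, 6.91 and 10.6 CPM in the mutants. Every mutant embryo lay above every wild-type embryo, and mutant embryo 5 was highest. The log2 fold change was 0.90 (SE 0.258, adjusted p = 0.0188, edgeR exact test). The call was lost without mutant embryo 5 (log2 fold change 0.69, adjusted p = 0.127) and without wild-type embryo 3 (0.75, adjusted p = 0.259).

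*Itga8*, which pairs with *Itgb1* to form a receptor for nephronectin, was at 17.6, 12.8 and 13.8 CPM in wild type and at 23.9, 20.5, 21.9 and 21.8 CPM in mutants. The groups were separate and the mutants close to each other. *Itga8* rose (log2 fold change 0.58, SE 0.151, adjusted p = 0.00729). *Itga9*, whose product binds tenascin C and other matrix ligands, was at 71.1, 78.2 and 64.1 CPM in wild type and at 86.5, 101, 95.9 and 90.8 CPM in mutants. Here too all mutants exceeded all wild-type embryos, by a smaller factor (log2 fold change 0.39, SE 0.0951, adjusted p = 0.0140). Both calls were lost without wild-type embryo 3, with adjusted p = 0.1002 for *Itga8* and 0.211 for *Itga9*, and the count of members called then fell from 5 to 2 (*Itgb3* and *Itgb5*), beside 2.05% of all genes tested.

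*Itgb3* and *Itgb5* encode beta chains that both pair with alphaV and bind vitronectin, and they moved in opposite directions. *Itgb3* was at 7.04, 6.97 and 9.31 CPM in wild type and at 9.99, 13.3, 10.3 and 10.4 CPM in mutants. The highest wild-type embryo lay just below the lowest mutant, and mutant embryo 3 stood above the other mutants (log2 fold change 0.50, SE 0.175, adjusted p = 0.0475). The *Itgb3* call was lost without that embryo (adjusted p = 0.161), without wild-type embryo 1 (0.217) and without wild-type embryo 2 (0.219). *Itgb5* was at 152, 158 and 150 CPM in wild type and at 118, 132, 123 and 116 CPM in mutants. The wild-type embryos were tightly grouped above all mutants, and *Itgb5* fell by 0.33 on the log2 scale (SE 0.0478, adjusted p = 0.0131). The *Itgb5* call was kept in every alternative run. Their alpha partner *Itgav* was at 76.1 to 87.1 CPM in wild type and 85.3 to 104 CPM in mutants and was not called.

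Per length, *Itgb5* transcripts made up 31.7% ± 1.09 (SD, n=3) of the sum of the 8 beta chain genes in wild type at E10.0 and 25.0% ± 1.90 (n=4) in mutants. *Itgb1* made up 66.8% ± 1.24 and 73.0% ± 2.10. The groups did not overlap in either share. These genes made up nearly all of the sum, so that a lower share of *Itgb5* entails a higher share of *Itgb1*. The *Itgb1* level itself overlapped, at 374 to 414 CPM in wild type and 399 to 487 CPM in mutants, and was not called. *Itgb3* accounted for only 0.926% ± 0.191 and 1.29% ± 0.166, so that its rise was small beside the fall of *Itgb5* in transcripts per length.

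In all, 7 of the 27 members had groups that did not overlap at E10.0, beside 17.8% of all genes tested. *Itgb8* (log2 fold change 0.28, adjusted p = 0.447) and *Lama3* (-0.32, adjusted p = 0.736) were separated but not called. *Itga1*, a collagen-binding chain, *Lama1*, an early embryonic laminin chain, *Lama4*, a chain of vessel walls and mesenchyme, *Lamb1* and *Lamc1* had unadjusted p values between 0.00788 and 0.0442 with adjusted p from 0.106 to 0.267, with overlapping groups. *Lama1* was the largest of these, at 21.1, 31.4 and 13.6 CPM in wild type and 27.3, 40.7, 32.6 and 36.6 CPM in mutants (log2 fold change 0.64, SE 0.360, adjusted p = 0.118). It was called in 7 of 23 alternatives, among them without wild-type embryo 2 (adjusted p = 0.00732) and with RLE size factors (0.0977). *Itga1* was called in 8 of 23, among them without wild-type embryo 1 (adjusted p = 0.0111) and in DESeq2 (0.0580). Without the mutant libraries 4 and 5, all 5 calls were kept, *Itga6* (log2 fold change 0.28, adjusted p = 0.0262) and *Lamb2* (-0.45, adjusted p = 0.00372) were added. In that fit 7 of the 24 members tested were called, beside 16.4% of all genes tested.

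The promoters of *Lama2*, *Itga8* and *Itgb5* are shown because these genes had the largest rise, the lowest adjusted p among the members that rose and the only fall at E10.0. RefSeq gives the sequence from 250 bases before to 50 bases after the start for 20 of the 31 members (mouse build GRCm38.p6), among them 6 of the 7 members called between genotypes (not *Itgb3*). Capitals mark GTCT or its reverse complement AGAC, the core of the SMAD-binding element, found on either strand. The positions, on the strand given, are chr10:27616893-27617192 (minus) for *Lama2*, chr2:12301895-12302194 (minus) for *Itga8* and chr16:33829415-33829714 (plus) for *Itgb5*.
Lama2: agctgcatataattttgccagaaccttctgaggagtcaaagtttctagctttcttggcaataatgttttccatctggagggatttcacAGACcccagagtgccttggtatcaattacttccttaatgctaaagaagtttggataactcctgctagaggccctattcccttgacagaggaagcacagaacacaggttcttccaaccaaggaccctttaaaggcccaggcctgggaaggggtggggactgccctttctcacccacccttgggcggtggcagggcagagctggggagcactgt
Itga8: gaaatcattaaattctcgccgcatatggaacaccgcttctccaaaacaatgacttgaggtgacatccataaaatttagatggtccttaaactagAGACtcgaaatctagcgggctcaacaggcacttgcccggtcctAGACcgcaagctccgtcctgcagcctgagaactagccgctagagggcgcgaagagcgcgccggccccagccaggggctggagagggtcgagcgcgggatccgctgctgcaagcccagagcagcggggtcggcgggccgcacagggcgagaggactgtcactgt
Itgb5: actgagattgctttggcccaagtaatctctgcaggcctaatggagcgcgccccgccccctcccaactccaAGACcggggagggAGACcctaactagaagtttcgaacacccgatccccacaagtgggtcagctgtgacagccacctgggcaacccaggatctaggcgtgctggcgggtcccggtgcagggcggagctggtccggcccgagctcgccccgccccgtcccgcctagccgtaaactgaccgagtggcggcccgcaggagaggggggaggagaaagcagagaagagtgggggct

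There is 1 such match in the *Lama2* window and there are 2 each in those of *Itga8* and *Itgb5*. Over all 32851 promoters of this length in the table, 88.0% hold GTCT or AGAC, with a median of 2 matches, so that the presence of these letters does not set these genes apart. GGCGCC, a GC-rich SMAD motif, is in 11.9% of all promoters and in none of those of the called members, and GGAGCC or its complement GGCTCC is in 30.8% of all and in 1 of the *Itga3* promoters. In the build of the counts, mm9 (NCBIM37), the *Lama2* gene lies at chr10:26701094-27336748 on the minus strand, *Itga8* at chr2:12028259-12223547 on the minus strand and *Itgb5* at chr16:33829751-33949239 on the plus strand.

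At E10.5, *Lama2* was again higher in mutants, *Itgb8* was higher and *Itga3* was lower. These were 3 of the 27 members, beside 3.73% of all genes tested. Higher levels were called for 2 members, against 2.19% of all genes, and a lower level for 1, against 1.54%. The median log2 fold change was 0.06 over the members and -0.01 over all genes.

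*Lama2* was at 5.84, 3.87 and 8.86 CPM in the wild-type embryos at E10.5 and at 17.4, 11.8, 10.4 and 13.6 CPM in the mutants. The groups were separate, with wild-type embryo 3 nearest to the mutants. The log2 fold change was 1.11 (SE 0.376, adjusted p = 0.00126), a 2.15-fold difference and the largest among the members at this stage. This call was kept in every alternative. *Lama2* was the only member called between the genotypes at both stages.

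*Itgb8*, whose product with alphaV binds latent TGFβ, was at 2.33, 2.28 and 1.73 CPM in wild type and at 3.41, 3.86, 3.17 and 3.22 CPM in mutants. All mutants lay above all wild-type embryos, at a low level. The log2 fold change was 0.70 (SE 0.147, adjusted p = 0.00515), and without wild-type embryo 3 it was 0.58 with adjusted p = 0.108, which left *Lama2* as the single member called, beside 2.75% of all genes tested.

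*Itga3*, a laminin-binding chain of epithelia, was at 43.0, 37.6 and 38.8 CPM in wild type and at 20.5, 33.4, 32.0 and 28.7 CPM in mutants. Mutant embryo 1 was far below the others, and it also had the lowest summed level of 10 ectoderm and ridge markers, 186 CPM against 251 to 266 CPM in the other mutants and 252 to 267 CPM in wild type. The same embryo had the highest *Lama1* level of its group, 21.4 CPM. The part of ectoderm content in the result was not tested. *Itga3* fell by 0.48 on the log2 scale (SE 0.156, adjusted p = 0.0667). The call was lost without mutant embryo 1 (log2 fold change -0.34, adjusted p = 0.277), and also without mutant embryo 5 or any of the wild-type embryos of this stage, where adjusted p was 0.158 to 0.366. The quasi-likelihood test (adjusted p = 0.217) and DESeq2 (0.105) did not call it either.

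**Figure D2:**
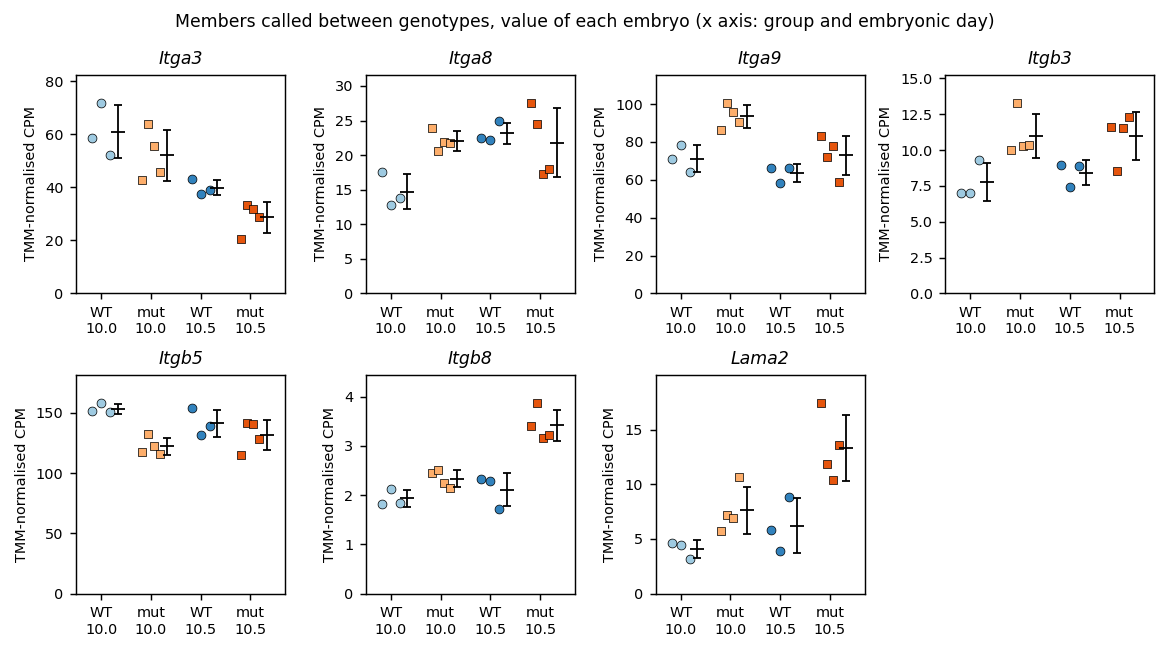
TMM-normalized CPM of each embryo for the 7 members called between the genotypes at either stage; circles are wild-type and squares mutant embryos, bars the mean ± SD (n=3 and 4 per stage), and each axis starts at 0. *Lama2* is separate at both stages, *Itga8*, *Itga9*, *Itgb3* and *Itgb5* are separate at E10.0 and overlap at E10.5, and *Itga3* and *Itgb8* were called at E10.5.

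Groups did not overlap for 5 members at E10.5, beside 13.0% of all genes tested. *Itga1* (log2 fold change 0.45, adjusted p = 0.154) and *Itga11* (0.56, adjusted p = 0.244), both collagen-binding chains, were higher in all mutants but not called. *Itga8*, *Itga9* and *Itgb5* overlapped between genotypes at this stage. *Itga8* was at 22.4, 22.2 and 24.9 CPM in wild type and at 27.5, 24.5, 17.3 and 17.98 CPM in mutants. The lower pair of mutants were libraries 4 and 5. *Itgav* was likewise lowest in these libraries, at 70.9 and 74.9 CPM, against 115 and 92.0 CPM in mutants 1 and 2 and 80.4 to 101 CPM in wild type. Without libraries 4 and 5, all 3 calls were kept and *Lama4* was added (log2 fold change 0.42, adjusted p = 0.0703), which made 4 of 24 members tested, beside 4.27% of all genes tested.

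From E10.0 to E10.5 in wild type, *Itga8* rose, and *Itga3*, *Lama5* and *Lamc1* fell. These 4 of 27 members stood beside 10.1% of all genes tested. A rise was called for 1 member, against 5.39% of all genes, and a fall for 3, against 4.74%. *Itga8* went from 12.8 to 17.6 CPM at E10.0 to 22.2 to 24.9 CPM at E10.5 (log2 fold change 0.65, SE 0.154, adjusted p = 0.00195). *Itga3* went from 58.7, 71.7 and 52.1 CPM to 43.0, 37.6 and 38.8 CPM, and fell by 0.61 (SE 0.149, adjusted p = 0.00675). In both genes the stages were separate. The *Itga8* call was kept in every alternative, and that of *Itga3* was lost without wild-type embryo 2 of E10.0 (adjusted p = 0.149).

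*Lama5*, the main laminin alpha chain of ectodermal basement membranes, was at 43.9, 67.6 and 34.5 CPM at E10.0 and at 38.6, 27.4 and 35.6 CPM at E10.5 in wild type. The stages overlapped, and embryo 2 of E10.0 was the highest. *Lama5* fell by 0.52 (SE 0.325, adjusted p = 0.0587) with that embryo, and the log2 fold change was -0.21 (adjusted p = 0.607) without it. The *Lama5* call was also lost without wild-type embryo 2 (adjusted p = 0.3098) or 3 (0.171) of E10.5 and in the quasi-likelihood test (0.136). *Lamc1* also overlapped, at 161, 183 and 123 CPM and at 139, 92.3 and 129 CPM, with a log2 fold change of -0.37 (SE 0.236, adjusted p = 0.0999) that lost its call in 13 of 23 alternatives, with adjusted p up to 0.525 without embryo 2 of E10.0. Embryo 2 of E10.0 also had the highest summed ectoderm and ridge markers of the wild-type embryos, 336 CPM. Wild-type embryo 3, the lowest of its group for *Lama5*, *Lama1* and *Itga3*, had the lowest sum of its group, 266 CPM. Among the mutants of E10.0, embryo 3 had the highest sum, 308 CPM, and the highest levels of these genes. The lowest sum there, 215 CPM, was in embryo 5, whereas the lowest levels of these genes were in embryo 1, with a sum of 290 CPM. The part of ectoderm content in these values was not tested. In whole buds, fewer cells of a type and less RNA per cell cannot be told apart. Without embryo 2 of E10.0, the only member called was *Itga8*, beside 3.91% of all genes tested. In wild type, 4 members had stages that did not overlap, beside 37.0% of all genes tested.

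In mutants, 11 of the 27 members changed from E10.0 to E10.5, beside 19.2% of all genes tested. Levels rose for 4 (*Itga11*, *Itgb8*, *Lama2* and *Lama3*), against 10.8% of all genes, and fell for 7, against 8.4%, among them *Itga3*, *Itga4*, *Itga9*, *Lama1*, *Lama5* and *Lamc1*. Of these, *Lama3* passed the expression filter only through embryos of E10.5. The median log2 fold change was -0.12 over the members in each genotype, against -0.01 over all genes in each. Stages did not overlap for 9 members, beside 20.0% of all genes.

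Among the laminin genes that fell in mutants, *Lama1* went from 27.3, 40.7, 32.6 and 36.6 CPM to 21.4, 16.04, 16.2 and 13.3 CPM. Every E10.5 mutant was below every E10.0 mutant (log2 fold change -1.03, SE 0.190, adjusted p = 1.03e-04). *Lama5* went from 42.8, 63.8, 54.5 and 50.5 CPM to 29.1, 29.8, 29.0 and 32.3 CPM. The E10.5 mutants were within a narrow band below all E10.0 mutants (log2 fold change -0.82, SE 0.125, adjusted p = 1.13e-05). *Lamc1* went from 170, 191, 206 and 185 CPM to 147, 130, 132 and 116 CPM. These stages were separate too (log2 fold change -0.52, SE 0.0896, adjusted p = 6.47e-04), but the call was lost without the mutant libraries 4 and 5 (-0.37, adjusted p = 0.141).

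*Lama2* and *Lama3* rose in mutants. *Lama2* went from 5.73, 7.17, 6.91 and 10.6 CPM to 17.4, 11.8, 10.4 and 13.6 CPM, where the lowest embryo of E10.5 lay just under the highest of E10.0. The log2 fold change was 0.81 (SE 0.259, adjusted p = 0.00465), and without libraries 4 and 5 it was 1.19 (adjusted p = 0.00222). *Lama3* went from 0.410, 0.450, 0.328 and 0.467 CPM to 0.782, 0.624, 1.08 and 1.73 CPM, from a level at the edge of the expression filter (log2 fold change 1.30, SE 0.351, adjusted p = 0.00173). The 3 embryos that took *Lama3* past the filter were all of E10.5. It was thus tested only because of the stage where it was high. It was too low to be tested without libraries 4 and 5.

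Among the integrins, *Itga11* rose the most in mutants, from 0.883 to 0.992 CPM at E10.0 to 1.94, 1.95, 2.55 and 1.89 CPM at E10.5. The stages were widely apart relative to their spread (log2 fold change 1.12, SE 0.114, adjusted p = 6.33e-06). *Itgb8* went from 2.45, 2.51, 2.24 and 2.14 CPM to 3.41, 3.86, 3.17 and 3.22 CPM without overlap (log2 fold change 0.55, SE 0.0854, adjusted p = 0.00629). *Itga3* went from 42.8, 63.9, 55.3 and 45.8 CPM to 20.5, 33.4, 32.0 and 28.7 CPM, again without overlap (log2 fold change -0.86, SE 0.197, adjusted p = 1.79e-07). *Itga3* was the only integrin gene called as falling in wild type and in mutants.

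*Itga9* and *Itga4*, closely related alpha chains that share several ligands, both fell in mutants. *Itga9* went from 86.5, 101, 95.9 and 90.8 CPM to 83.1, 72.3, 77.6 and 58.9 CPM, with all E10.5 values lower (log2 fold change -0.35, SE 0.113, adjusted p = 0.00425). *Itga4* went from 64.4, 42.9, 46.7 and 44.8 CPM to 45.9, 43.4, 34.4 and 32.9 CPM. Its stages overlapped, and mutant embryo 1 of E10.0 stood above the rest (log2 fold change -0.34, SE 0.187, adjusted p = 0.0810). Without libraries 4 and 5, neither gene was called (adjusted p = 0.128 for *Itga9* and 0.389 for *Itga4*), and *Itga6* was called (log2 fold change -0.32, adjusted p = 0.0183). In that fit 8 of the 24 members tested were called, beside 17.5% of all genes tested. The *Itga4* call was also lost in the quasi-likelihood test (adjusted p = 0.137), without mutant embryo 1 of E10.0 (0.331) and without mutant embryo 4 (0.217) or 5 (0.2495) of E10.5.

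**Figure D3:**
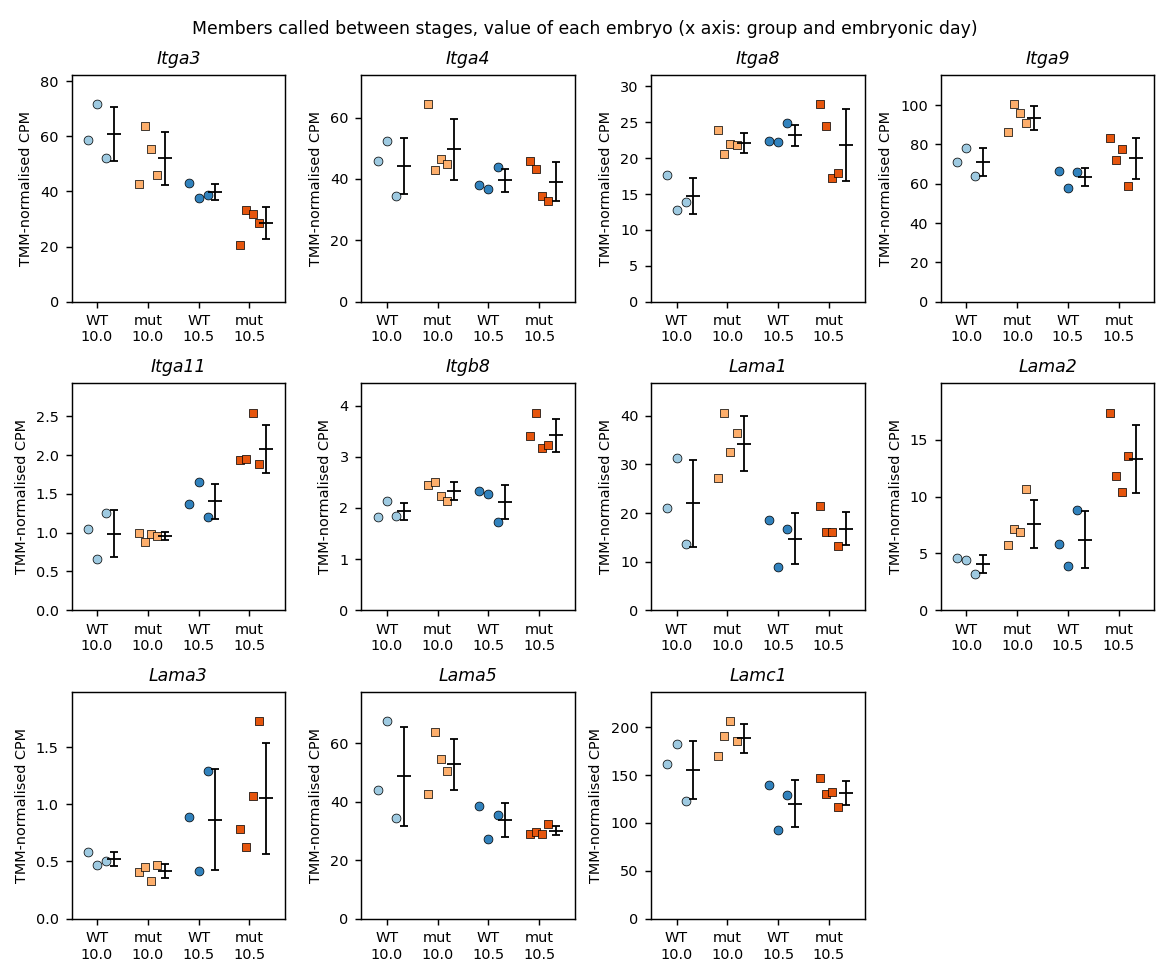
TMM-normalized CPM of each embryo for 11 members called between E10.0 and E10.5 in wild type or in mutants; circles are wild-type and squares mutant embryos, bars the mean ± SD (n=3 and 4 per stage), and each axis starts at 0. In mutants, *Itga11*, *Itgb8* and *Lama3* are higher and *Itga3*, *Itga9*, *Lama1*, *Lama5* and *Lamc1* lower in every E10.5 embryo.

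Whether the change from E10.0 to E10.5 differed between the genotypes was tested directly, by the interaction term of edgeR's quasi-likelihood fit. No member passed at an adjusted p of at most 0.1 (0 of 27), beside 0.186% of all genes tested (0.0565% with a positive and 0.129% with a negative interaction). *Itga8* had an interaction of -0.66 on the log2 scale with an adjusted p of 0.545 in edgeR. It was the only member with an unadjusted p under 0.05. DESeq2 also found 0 members. *Itga8* rose between stages in wild type, whereas in mutants it was at 20.5 to 23.9 CPM at E10.0 and at 17.3 to 27.5 CPM at E10.5. The 11 members called between stages in mutants (n=4) and the 4 in wild type (n=3) thus do not show a difference between the genotypes.

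**Figure D4:**
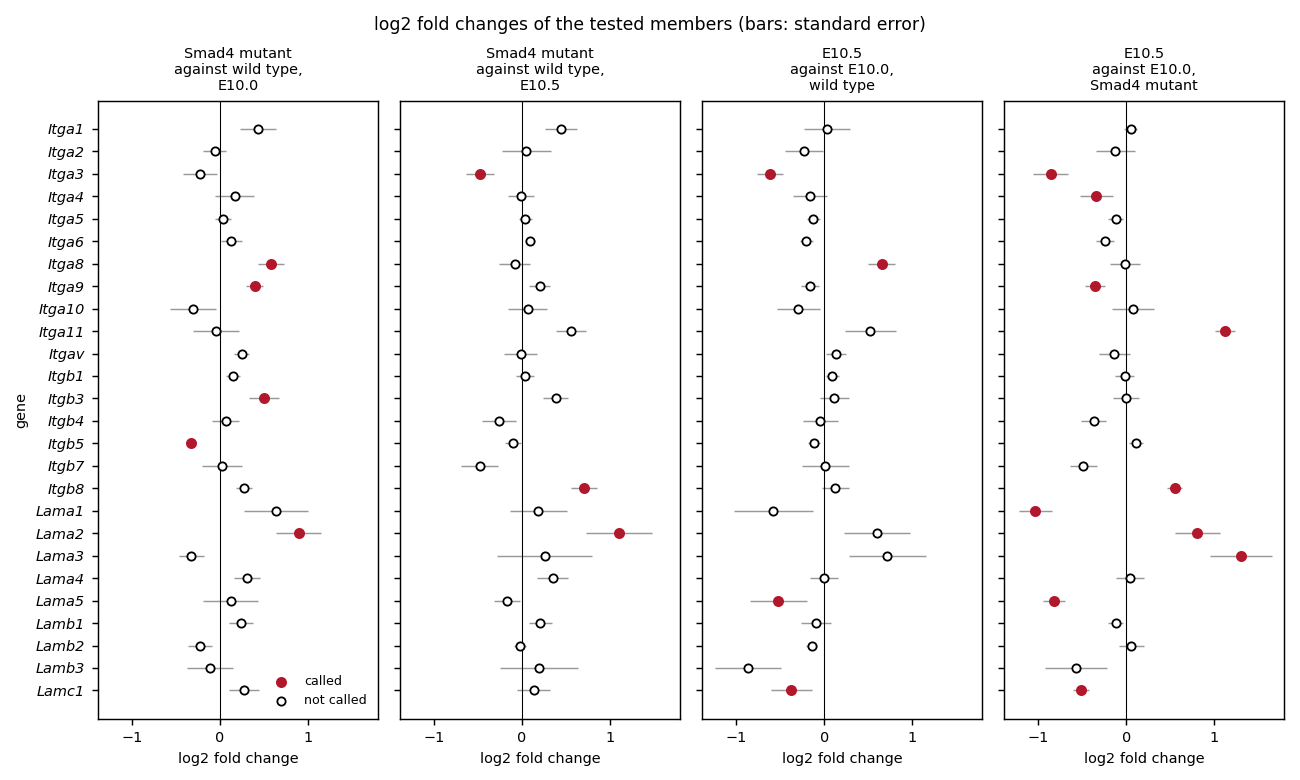
Log2 fold changes of 26 of the 27 members tested in the comparisons of genotypes and of stages, with error bars of 1 SE from the spread between embryos (n=3 wild-type and 4 mutant embryos per stage). *Lama2* has the largest positive genotype difference at both stages (0.90 and 1.11), and most members lie near 0.

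The makeup of the laminin alpha transcripts was compared as the share of each gene in the sum of the 5 genes, per length. *Lama2* made up 3.68% ± 0.414 (SD, n=3) in wild type and 5.36% ± 1.09 (n=4) in mutants at E10.0. At E10.5 it made up 6.47% ± 1.70 in wild type and 11.9% ± 1.79 in mutants. The genotypes did not overlap at either stage, with 9.52% to 13.4% in mutants against 5.41% to 8.43% in wild type at E10.5. *Lama5* made up 36.6% ± 5.68 in wild type and 32.0% ± 3.30 in mutants at E10.0. Its share was 31.0% ± 1.91 in wild type and 23.2% ± 3.18 in mutants at E10.5. There the mutant shares, at 19.2% to 26.6%, were all below the wild-type range of 28.9% to 32.7%. The *Lama5* level itself overlapped at E10.5, at 27.4 to 38.6 CPM in wild type and 29.0 to 32.3 CPM in mutants, and was not called. The sum that the shares refer to was 9.64 ± 1.98 CPM per kb in wild type and 11.5 ± 1.28 in mutants at E10.5. *Lama4* had the largest mean share in every group (39.6%, 37.6%, 46.0% and 48.7% in the same order). *Lama1* contributed 19.6%, 24.8%, 15.7% and 15.2%, and *Lama3* less than 1%. Among the beta chain genes, *Lamb1* made up 79.4% to 84.3% as group means. These shares are of transcripts and were described without a test.

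**Figure D5:**
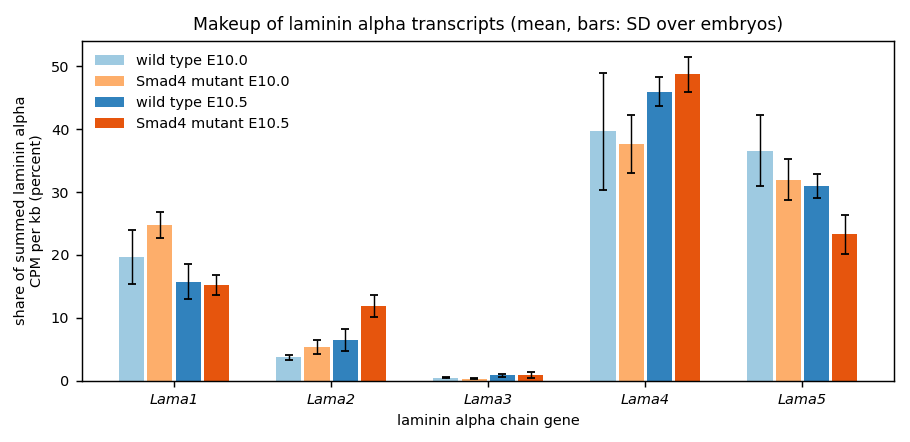
Share of each laminin alpha chain gene in their summed CPM per kb, in percent, as mean with SD over embryos (n=3 wild-type and 4 mutant embryos per stage). *Lama4* and *Lama5* make up most of the sum, and the *Lama2* share is 11.9% in mutants at E10.5 against 6.47% in wild type.

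Among 13 basement membrane partners of laminin, all tested, 3 were higher and 0 lower in mutants at E10.0, and again 3 and 0 at E10.5, beside 3.33% and 2.19% of all genes higher. The list medians were 0.14 and 0.12 on the log2 scale, against -0.02 and -0.01 over all genes. The 3 genes were *Nid1*, which encodes the nidogen that links laminin to collagen IV, and the matricellular genes *Smoc1* and *Smoc2* at both stages. *Nid1* was at 252 ± 18.8 CPM in mutants (n=4) and 176 ± 7.28 CPM in wild type (n=3) at E10.0 (log2 fold change 0.51, adjusted p = 5.31e-04), and at E10.5 its groups overlapped (log2 fold change 0.33, adjusted p = 0.0863). Between stages, 2 rose (*Smoc1* and *Smoc2*) and 2 fell (*Nid2* and *Bcam*) in wild type, and 2 rose (the same pair) and 5 fell (*Nid1*, *Nid2*, *Hspg2*, *Agrn* and *Bcam*) in mutants. Over all genes, 5.39% rose and 4.74% fell in wild type, and 10.8% rose and 8.4% fell in mutants. *Hspg2*, the gene of perlecan, had the largest fall, from 132 ± 36.0 to 66.9 ± 10.3 CPM in mutants (log2 fold change -0.98, adjusted p = 5.37e-04).

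Of 18 extracellular ligands of integrins, 16 were tested. At E10.0, 2 were higher in mutants, *Tnc* (tenascin C) and *Frem1*, and at E10.5, 2 were higher, *Frem1* and *Thbs1*, with 0 lower at either stage. The share of all genes higher in mutants was 3.33% and 2.19%. *Tnc*, a ligand of the alpha9 chain, varied widely, at 21.2 ± 10.1 CPM in mutants and 6.61 ± 5.47 CPM in wild type with overlapping groups (log2 fold change 1.68, SE 0.770, adjusted p = 0.0313). Between stages, 4 rose and 0 fell in wild type, and 4 rose and 3 fell in mutants, *Tnc* (log2 fold change -2.79), *Fras1* and *Frem2*, against the shares over all genes just given for the stages. Of 21 cytoplasmic adaptors, 20 were tested, and 2 (*Vcl* and *Dst*) were higher in mutants at E10.0, beside 6.61% of all genes called in either direction, and 0 were called at E10.5, beside 3.73%. Between stages, 1 adaptor (*Parvb*) fell in wild type, beside 10.1% of all genes called, and 4 were called in mutants, beside 19.2%, as *Parva* rose and *Tln1*, *Tln2* and *Parvb* fell. The 7 integrin genes that the symbol rule does not cover, mostly of leukocytes and platelets, had 3 tested and 0 called in the genotype and stage comparisons. No gene of these 4 lists passed the interaction test.

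Markers of other cell types in the bud were summed per embryo beside these results. Endothelial markers (8 genes) summed to 297 to 342 CPM in wild type and 322 to 380 CPM in mutants at E10.0, and to 299 to 321 and 317 to 367 CPM at E10.5. Ectoderm and ridge markers (10 genes) summed to 266 to 336 and 215 to 308 CPM at E10.0. Of these 10 genes, 1 (*Krt5*) was lower in mutants at E10.0 (log2 fold change -0.40, adjusted p = 0.0485), beside 3.28% of all genes tested. The endothelial and the ectodermal sums overlapped between genotypes. Mesothelial markers (5 genes) did not: they summed to 6.96 to 10.2 CPM in wild type and 13.4 to 24.8 CPM in mutants at E10.0, and to 9.997 to 12.9 and 5.76 to 9.41 CPM at E10.5. The mesothelial sum was thus higher in mutants at E10.0 and lower at E10.5. Of the 4 mesothelial genes tested, 2 (*Wt1* and *Upk3b*) passed the interaction test with a negative interaction, beside 0.129% of all genes tested. The part of mesothelial content in the *Lama2* differences was not tested. Leukocyte markers (8 genes) summed to 3.58 to 7.07 and 7.53 to 10.6 CPM at E10.0 without overlap, and to 12.0 to 15.1 and 15.0 to 22.0 CPM at E10.5. None of these markers was at 0 in all embryos, and the part of other cell types in the genotype differences was not tested. Megakaryocyte and platelet markers (4 genes), cells that express *Itgb3*, summed to 4.29 to 6.91 CPM in wild type and 6.50 to 8.02 CPM in mutants at E10.0. Erythroid markers (5 genes, 2650 to 5091 CPM) and neural crest and Schwann cell precursor markers (5 genes, 11.1 to 16.3 CPM) overlapped between the genotypes at each stage, although *Erbb3* of the latter list was lower in mutants at E10.5 (log2 fold change -0.42, adjusted p = 0.0393). Muscle precursor markers (5 genes) summed to 31.3 to 35.7 CPM in wild type and 30.2 to 40.1 CPM in mutants at E10.0, with *Myf5* higher in mutants (log2 fold change 1.26, adjusted p = 0.0022). At E10.5 their sum was lower in every mutant, at 29.8 to 33.5 CPM against 36.5 to 36.8 CPM in wild type.

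Markers of limb mesenchyme, the tissue targeted by Cre, also moved with genotype. Of the 8 genes, 4 were lower in mutants at E10.0 (*Prrx1*, *Prrx2*, *Twist1* and *Tbx5*), beside 3.28% of all genes tested. The authors report *Prrx2* as a SMAD4 target gene with reduced expression in these mutants. The list median was -0.30 on the log2 scale against -0.02 over all genes. At E10.5, 3 were lower (*Prrx1*, *Prrx2* and *Twist1*), beside 1.54% of all genes tested, and 1 was higher (*Pdgfra*), beside 2.19%. The list median was then -0.23 against -0.01. The sums overlapped between genotypes, at 1608 to 1841 CPM in wild type and 1398 to 1684 CPM in mutants at E10.0 and at 1842 to 1978 and 1664 to 1868 CPM at E10.5. The part of these mesenchyme, muscle precursor and neural crest markers in the differences of the integrin and laminin genes was not tested.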

How the data were processed

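The authors aligned single-end 50-base reads to mm9 with TopHat 2.0.13 and the refGene transcripts, retained reads with a unique position and assigned them to genes by htseq-count with strand ignored, so that overlapping genes and antisense partners cannot be told apart. The HTSeq version is not given in the sources used here. The deposited values are raw counts per gene symbol, 1 file per embryo, with no normalization. Here, the sex chromosomes and the mitochondrial genome were dropped, and the 12393 genes reaching 1 CPM in 3 or more embryos were tested over all 14 samples with edgeR 4.0.16 (R 4.3.3): TMM factors (0.934 to 1.035), common and tagwise dispersion with a prior of 10 degrees of freedom, the exact test, and Benjamini-Hochberg adjustment over all genes tested, with calls at adjusted p ≤ 0.1 and fold ≥ 1.2. The interaction was tested with edgeR's quasi-likelihood test. Every adjusted p in the text is from these edgeR tests unless another tool is named. DESeq2 1.42.0 was an alternative. The tests were checked on simulated counts.

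CPM values are TMM-normalized. The SE of a log2 fold change was computed from the SDs between embryos. Level per length used the union of exons in the NCBIM37 annotation, and all 31 members were found in it. Depth was 34066930 to 61691258 reads on genes. Replicates are separate embryos. Replicate numbers come from the labels. The mutant embryos 1, 4 and 5 share their numbers across stages. Their same-numbered deviations from the group means correlated at 0.269 to 0.611, against -0.587 to 0.383 for different numbers. These ranges overlap, and the labels do not say whether a shared number pairs embryos. Members are named, except 1 whose results are not reported here. Values per embryo or ranges are given for those called or highest per length. The members, lists and alternatives were chosen with earlier results of these data known, and none of the lists is independent evidence. Plots were drawn with matplotlib 3.10.9.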

Additional observations from a re-analysis of the deposited data

Results flagged for a closer look

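In 2 of 54 groups of 4 embryos, 1 embryo lay far from the others by Dixon's criterion, and chance alone gives about 1 in 20. *Itga11* was at 2.55 CPM in mutant embryo 4 of E10.5, against 1.89 to 1.95 CPM in the other mutants of that stage. *Itgb3* was at 13.3 CPM in mutant embryo 3 of E10.0, against 9.99 to 10.4 CPM in the others. Without that embryo *Itgb3* was not called between the genotypes at E10.0 (edgeR adjusted p = 0.161), and the *Itga11* rise between stages in mutants was kept in every alternative.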

How the results depend on the processing

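Each comparison was recomputed with the quasi-likelihood test, DESeq2, RLE size factors, no filter on low counts, all chromosomes, adjusted p alone, each stage or genotype fitted apart, the replicate block, without mutant libraries 4 and 5, and without each of the 14 embryos. The 23 calls of members gave 524 alternative values, of which 476 kept the call, 48 lost it and 0 changed direction, and 10 of the 23 calls were never lost. The *Lama3* call in mutants is among these 10 but has only 18 alternative values. In the remaining alternatives *Lama3* fell below the filter and was not tested. A further 16 differences of members, not called as reported, gained a call in at least 1 alternative, in 42 of their 360 values. The count of members called in wild type between stages went from 4 to 2 with the quasi-likelihood test and to 2 with the replicate block (*Itga3* and *Itga8* in each). Of all genes tested, 10.1% were called as reported, 8.96% with the quasi-likelihood test and 14.2% with the block. Without each embryo in turn, the count was 2 to 7 for the genotypes at E10.0, 1 to 4 for the genotypes at E10.5, 1 to 6 for the stages in wild type, 9 to 12 for the stages in mutants and 0 to 0 for the interaction. In the same order, the shares of all genes called were 2.05% to 8.58%, 2.31% to 4.17%, 3.91% to 12.2%, 15.3% to 22.1% and 0.0566% to 0.275%. The *Itgav* log2 fold change between stages in mutants was -0.14 and became 0.14 without libraries 4 and 5, where mutant libraries 4 and 5 are the lowest of E10.5. With the replicate number as a block, *Lama2* at E10.0 (adjusted p = 0.104) and *Itga3* at E10.5 (0.208) lost their genotype calls. Same-numbered embryos of the genotypes correlated at -0.188 to 0.174 at E10.0 and -0.260 to -0.0512 at E10.5. Those of the wild-type stages correlated at -0.283 to -0.0785. What a shared number stands for is not given in the labels. Levels per length moved by at most 0.895% with RLE size factors. Over all genes, the E10.0 genotype count of 819 was 1961 with the replicate block and 2018 without libraries 4 and 5, and 254 to 1062 without single embryos. The E10.5 count of 462 was 280 with the block, and the wild-type stage count of 1256 was 1932 with the genotypes fitted apart and 484 to 1515 without single embryos. The interaction count of 23 was 79 with DESeq2, 39 with no filter and 6 without libraries 4 and 5, and 7 to 34 without single embryos. Apart from what the construction of an alternative changes (fewer embryos or other genes tested), the cause of these shifts was not tested. Members below about 1 CPM rest on few reads, so that only large changes could be detected in them.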
